A study of Mus musculus with 4 samples.

Results

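The CC chemokines described here are 7 ligand genes and 2 receptor genes measured by RNA-seq in mouse blood progenitor colonies. The ligands are Ccl2, Ccl7, Ccl12, Ccl3, Ccl4, Ccl6 and Ccl9, and the receptors are Ccr2 and Ccr1. The members were taken by name, and all 9 were among the 14323 genes of the table. The colonies grew from ST-HSCs (short-term haematopoietic stem cells) or MPP2 cells (multipotent progenitors biased to platelet and red cell formation) of C57BL/6 mice, 100 cells to a culture. They were kept for 5 to 7 days in 1% methylcellulose with SCF at 25 ng/ml and with IL-6, IL-3 and GM-CSF at 10 ng/ml each.

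There were 4 groups with 1 library each. MPP2 with 4OHT and ST-HSC with 4OHT received 4-hydroxytamoxifen at 0.05 µM in ethanol, and both are labelled MLL-ENL for conditional expression. MLL-ENL is a fusion protein of human leukaemia. MPP2 with ethanol and ST-HSC with ethanol received the same amount of ethanol, and the labels call both control. Per the design text all 4 groups came from the same model mouse, so the controls carry the inducible system too. Its alleles, promoter and recombinase, the age of the mice and the number of mice or cultures behind a library are not given. Since 4OHT and the fusion always came together, an effect of the drug and one of the fusion cannot be told apart. The groups were compared because the design sets each induced culture against its own vehicle control, here across the chemokine genes and with each ligand beside its receptor.

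CC chemokines are small secreted proteins in which the first 2 conserved cysteines stand side by side. They bind receptors with 7 membrane-spanning segments on leukocytes and direct the migration of those cells. CCL2, CCL7 and, in the mouse, CCL12 act through CCR2, which brings monocytes out of bone marrow into blood and tissue. CCL3 acts through CCR1, and its close relative CCL4 binds CCR1 weakly at most. CCL6 and CCL9 are rodent chemokines of myeloid cells that act through CCR1, a receptor of monocytes, neutrophils and their precursors.

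The stretch of coding sequence around the adjacent cysteine codons is shown for 6 of the ligands, because it is the feature that defines the family and because it shows how far the counted transcripts differ in sequence. Each line gives 36 coding bases, 5′ to 3′, from GRCm38, and the capitals mark the 2 cysteine codons.
Ccl2 at chr11:82036491-82036526, plus strand: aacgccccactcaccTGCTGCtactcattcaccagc
Ccl7 at chr11:82046523-82046558, plus strand: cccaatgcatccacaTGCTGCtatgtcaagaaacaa
Ccl12 at chr11:82102619-82102654, plus strand: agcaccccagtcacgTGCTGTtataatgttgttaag
Ccl4 at chr11:83663467-83663502, plus strand: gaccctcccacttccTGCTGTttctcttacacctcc
Ccl6 at chr11:83589371-83589406, minus strand: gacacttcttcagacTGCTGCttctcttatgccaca
Ccl9 at chr11:83575911-83575946, minus strand: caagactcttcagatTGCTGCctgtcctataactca
Within each of these ligands the stretch lay in 1 coding exon. Ccl12 and Ccl4 have TGT as the second cysteine codon and the other 4 shown have TGC.

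The ligand genes lie in 2 groups on chromosome 11 (GRCm38, GENCODE M21). Ccl2 (chr11:82035571-82037453), Ccl7 (chr11:82045712-82047525) and Ccl12 (chr11:82101845-82103400) lie on the plus strand, with 8.26 kb between Ccl2 and Ccl7 and 54.3 kb between Ccl7 and Ccl12. Ccl9 (chr11:83572919-83578636, minus), Ccl6 (chr11:83587882-83593087, minus), Ccl3 (chr11:83647844-83649355, minus) and Ccl4 (chr11:83662584-83664683, plus) begin 1470 kb further on. Ccr1 (chr9:123962124-123968692, minus) and Ccr2 (chr9:124101950-124113557, plus) lie 133 kb apart on chromosome 9.

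The closest coding sequences were those of Ccl6 and Ccl9, identical at 70.7% of aligned bases, followed by Ccl7 and Ccl12 at 67.0% and Ccl3 and Ccl4 at 66.7%. Exact matches over longer stretches were few. None of the 31-base words in transcripts of Ccl2, Ccl7, Ccl12, Ccl3 or Ccl4 occurred in transcripts of another gene. The share of such words was 1.02% for Ccl6, 3.75% for Ccl9, 3.41% for Ccr2 and 0.642% for Ccr1. Ccl6 overlaps the antisense gene E230016K23Rik, which was listed at 1.59 normalized counts or less in every library, far under Ccl6. Ccl2 overlaps the antisense gene Gm17268. The libraries were made with a directional kit, but whether strand was used in counting is not given, so reads of Ccl2 and Gm17268 could not be told apart.

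Levels are normalized counts, the deposited reads scaled by library, in which 1 read was worth 0.0695 to 0.0802. Depth was 12907412 to 14317891 reads a library, and the 9 members took 0.227% of reads in MPP2 with 4OHT, 0.335% in MPP2 with ethanol, 0.126% in ST-HSC with 4OHT and 0.0898% in ST-HSC with ethanol. Log2 differences were taken after adding 0.5, which understates the change of low genes. Ratios are of the normalized counts themselves, with exact 95% intervals that cover counting error only. A difference between a pair of libraries has no replicate check and no p-value, and genes at least 2-fold apart in log2 values are counted against the same count over the 11370 genes that averaged 1 normalized count or more. Ccl12 averaged 0.420 and did not reach that mean, so 8 of 9 members entered the counts. As the libraries are bulk RNA of whole colonies, fewer cells of a type and less RNA per cell cannot be told apart.

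Among the marker lists of blood and stromal cells, the neutrophil list had the highest summed level in every library. It came to 43124 normalized counts in MPP2 with 4OHT, 44220 in MPP2 with ethanol, 25110 in ST-HSC with 4OHT and 33384 in ST-HSC with ethanol. The markers used to sort stem cells were present in part. Slamf1 (CD150), which defines MPP2 cells, stood at 2.49 and 3.17 normalized counts in MPP2 with 4OHT and ethanol and at 0 in both ST-HSC libraries, while Kit stood between 76.4 and 92.9 in all 4. Of the 6 sorting markers, 3 (Ly6a, Cd34 and Procr) were at least 2-fold higher with 4OHT in ST-HSC colonies, against 2.1% of all genes, and 0 in MPP2 colonies, against 1.32%. Ly6a (Sca-1) stood at 32 in MPP2 with 4OHT and 24.7 in MPP2 with ethanol, and at 61.4 in ST-HSC with 4OHT and 27.8 in ST-HSC with ethanol. The fusion joins parts of MLL and ENL, whose mouse genes are Kmt2a and Mllt1, and which of its reads these genes would take was not tested. Kmt2a stood at 72.1 to 91.1 normalized counts and Mllt1 at 50.9 to 62.7 over the 4 libraries, and these counts do not check the induction.

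**Figure D1:**
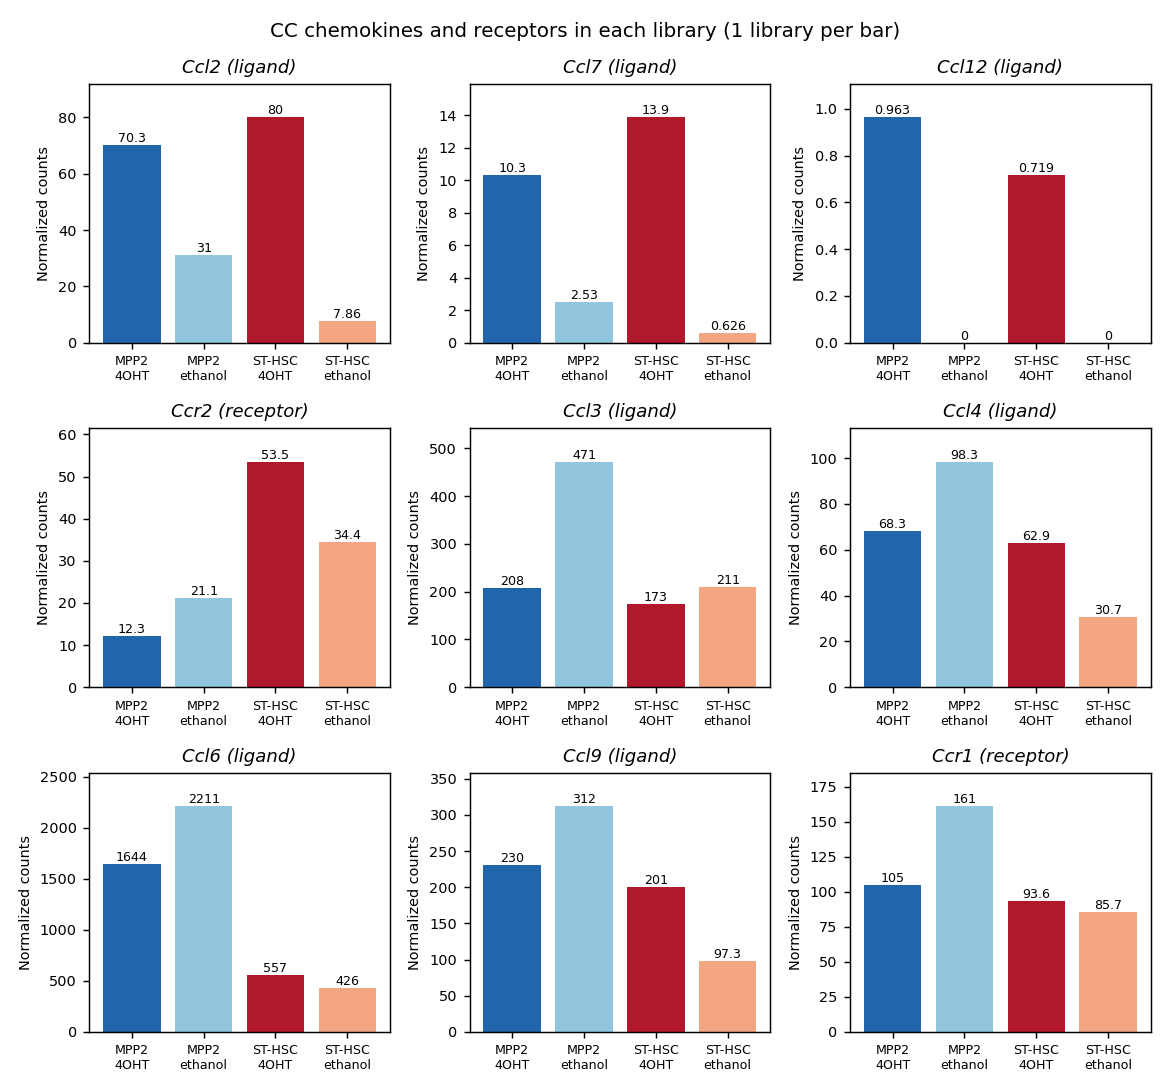
Normalized counts (vertical axis, from 0, own scale in each panel) of the 9 genes in the 4 libraries, 1 bar per library and no error bars because each group has 1 library. Ccl2, Ccl7 and Ccl12 are higher with 4OHT in both cell types, while Ccl6 is highest in the MPP2 libraries and Ccr2 in the ST-HSC libraries.

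The CCR2 ligands were higher with 4OHT than with ethanol in both cell types, and for Ccl2 and Ccl7 the ratio was larger in ST-HSC colonies. Ccl2, the main chemokine drawing monocytes, stood at 70.3 normalized counts in MPP2 with 4OHT and 31 in MPP2 with ethanol, a ratio of 2.27 (2.02 to 2.55). In ST-HSC colonies Ccl2 stood at 80.0 with 4OHT and 7.86 with ethanol, a ratio of 10.2 (8.38 to 12.5). Both 4OHT libraries therefore lay above both ethanol libraries, and ST-HSC with ethanol was the lowest. Ccl7, its neighbour with the same receptor, stood at 10.3 normalized counts in MPP2 with 4OHT and 2.53 in MPP2 with ethanol, a ratio of 4.10 (2.80 to 6.14). It stood at 13.9 in ST-HSC with 4OHT and 0.626 in ST-HSC with ethanol, a ratio of 22.2 (11.4 to 49.2). The lowest of these values rests on 9 reads, which is why that interval is wide.

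Ccl12, the rodent CCR2 ligand next in the row, was seen only in the 4OHT libraries. It had 12 reads in MPP2 with 4OHT and 10 in ST-HSC with 4OHT, or 0.963 and 0.719 normalized counts, and 0 reads in both ethanol libraries. Taking 3 reads per library as the most that a count of 0 allows, Ccl12 was at least 4.45-fold higher with 4OHT in MPP2 and at least 3.44-fold higher in ST-HSC colonies. With counting error in the 12 and 10 reads included, the exact 95% lower limits of these ratios were 3.09 in MPP2 and 2.32 in ST-HSC colonies. Ccl11 and Ccl8, which lie on either side of Ccl12, were not analysed here.

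Ccr2, their receptor, did not follow its ligands and had opposite 4OHT differences in the 2 cell types. It stood at 12.3 normalized counts in MPP2 with 4OHT and 21.1 in MPP2 with ethanol, a ratio of 0.583 (0.476 to 0.711). In ST-HSC colonies it stood at 53.5 with 4OHT and 34.4 with ethanol, a ratio of 1.55 (1.38 to 1.74). Neither difference reached 2-fold, and both MPP2 libraries lay below both ST-HSC libraries.

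Among the ligands paired with CCR1, Ccl3 (MIP-1α, an inflammatory chemokine of macrophages and other myeloid cells) was the only one lower with 4OHT in both cell types. It stood at 208 normalized counts in MPP2 with 4OHT and 471 in MPP2 with ethanol, 2.27-fold lower with 4OHT (ratio 0.441, 0.421 to 0.461). In ST-HSC colonies it stood at 173 with 4OHT and 211 with ethanol, a ratio of 0.822 (0.779 to 0.867). MPP2 with ethanol stood above the other 3 libraries, which lay close together. Ccl4 (MIP-1β), the adjacent gene on the opposite strand, differed from Ccl3 in ST-HSC colonies. It stood at 68.3 normalized counts in MPP2 with 4OHT and 98.3 in MPP2 with ethanol, and at 62.9 in ST-HSC with 4OHT and 30.7 in ST-HSC with ethanol. The Ccl4 ratio of 4OHT to ethanol was 0.694 (0.636 to 0.757) in MPP2 and 2.05 (1.83 to 2.30) in ST-HSC colonies, so the direction was opposite in the 2 cell types.

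Ccl6 had the highest level per kb of exon of the 9 genes in every library. In normalized counts it stood at 1644 normalized counts in MPP2 with 4OHT and 2211 in MPP2 with ethanol, and at 557 in ST-HSC with 4OHT and 426 in ST-HSC with ethanol. The ratio of 4OHT to ethanol was 0.744 (0.731 to 0.757) in MPP2 and 1.31 (1.26 to 1.35) in ST-HSC colonies, and both MPP2 libraries lay above both ST-HSC libraries. Ccl9 (MIP-1γ), its neighbour, stood at 230.2 normalized counts in MPP2 with 4OHT and 312 in MPP2 with ethanol, a ratio of 0.738 (0.704 to 0.774). In ST-HSC colonies Ccl9 stood at 201 with 4OHT and 97.3 with ethanol, a ratio of 2.06 (1.93 to 2.20). For Ccl9, as for Ccl4, Ccl6 and Ccr1, ST-HSC with ethanol was the lowest library and MPP2 with ethanol the highest.

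Ccr1, their receptor, varied least among the 9 genes. It stood at 105 normalized counts in MPP2 with 4OHT and 161 in MPP2 with ethanol, a ratio of 0.652 (0.608 to 0.698). In ST-HSC colonies it stood at 93.6 with 4OHT and 85.7 with ethanol, a ratio of 1.09 (1.01 to 1.18).

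Of the 8 members counted, 2 were at least 2-fold higher with 4OHT in MPP2 colonies (Ccl2 and Ccl7), against 1.32% of all genes, and 1 was at least 2-fold lower (Ccl3), against 1.7%. In ST-HSC colonies 4 were at least 2-fold higher (Ccl2, Ccl7, Ccl4 and Ccl9), against 2.1% of all genes, and 0 were at least 2-fold lower, against 0.545%. The median log2 difference of the 8 was -0.48 in MPP2 and 0.83 in ST-HSC colonies, where the medians of all genes were -0.00236 and -0.00373.

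**Figure D2:**
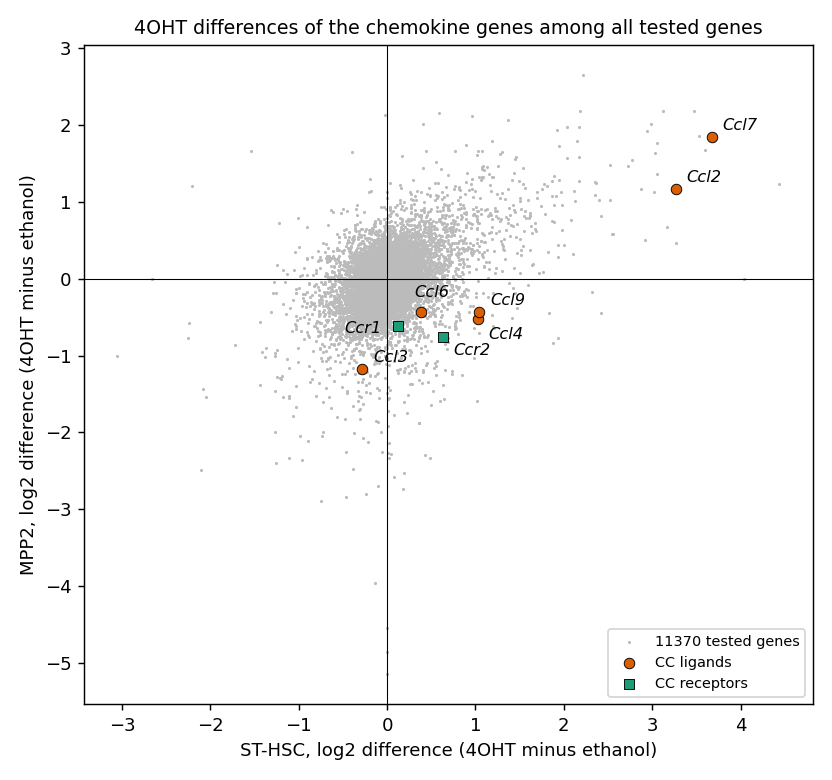
Log2 difference of 4OHT minus ethanol in ST-HSC colonies (horizontal axis) against that in MPP2 colonies (vertical axis), 1 point per gene, for 11370 genes (grey), CC ligands (circles) and CC receptors (squares). Ccl2 and Ccl7 lie to the upper right, at 3.27 and 3.67 in ST-HSC, and 5 of the 8 members lie to the lower right, above 0 in ST-HSC and below 0 in MPP2.

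All 8 members had a lower log2 difference of 4OHT minus ethanol in MPP2 than in ST-HSC colonies, where 51.7% of all genes did. The gap, MPP2 minus ST-HSC, was -2.10 for Ccl2, -1.83 for Ccl7 and -1.55 for Ccl4. For Ccl9 it was -1.48, for Ccr2 -1.38, for Ccl3 -0.90, for Ccl6 -0.81 and for Ccr1 -0.74. It was at least 2-fold in 5 of the 8, against 2.64% of all genes. By sign the members made 3 sets. Ccl2 and Ccl7 were above 0 in both cell types and Ccl3 was below 0 in both. The other 5 (Ccl4, Ccl6, Ccl9, Ccr2 and Ccr1) were above 0 in ST-HSC and below 0 in MPP2, a combination held by 18.8% of all genes. With 1 library per group, the gap between cell types had no residual spread to be tested against.

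**Figure D3:**
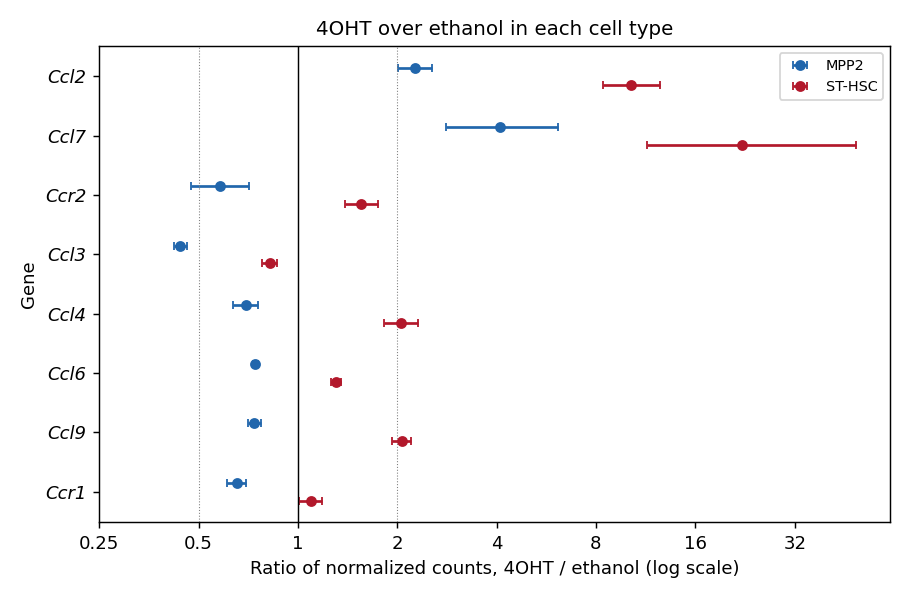
Ratio of normalized counts, 4OHT over ethanol (horizontal log axis), for 8 members in MPP2 (blue, upper point) and ST-HSC colonies (red, lower point), with exact 95% counting intervals as bars. Dotted lines mark 2-fold, and the ST-HSC point lies to the right of the MPP2 point for every gene.

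A 4OHT effect common to MPP2 and ST-HSC colonies was tested with limma on all 4 libraries, with 1 residual degree of freedom. That residual is the gap in 4OHT differences between cell types, since no group has a replicate. Ccl7 had the largest shared log2 effect of the members, 2.76 (SE 0.431, adjusted p = 0.10, higher with 4OHT in both cell types). Ccl2 had 2.22 (SE 0.489, adjusted p = 0.169 by limma, higher in both), and Ccl3 -0.73 (SE 0.238, adjusted p = 0.279 by limma, lower in both). By limma 0 of 8 members passed the adjusted threshold of 0.05, while 0.044% of all genes passed as higher and 0.0088% as lower. An unadjusted limma p under 0.05 was held by 3 of the 8 members and by 1615 of the 11370 genes. The edgeR quasi-likelihood test on recovered reads called Ccl7 (adjusted p = 0.00217), Ccl2 (adjusted p = 0.00557) and Ccl3 (adjusted p = 0.0393), where it called 2.47% of all genes higher and 1.86% lower. DESeq2 called Ccl7 alone, where it called 1.03% of all genes higher and 0.361% lower. Fitted with a trend, limma called the same 3 members as edgeR, with 2.96% of all genes higher and 2.3% lower. Over the 11 settings tried, the adjusted p ran between 2.49e-05 and 0.233 for Ccl7, between 4.22e-04 and 0.392 for Ccl2 and between 0.0117 and 0.939 for Ccl3. The other 5 members, whose signs differed between cell types, had shared effects between -0.24 and 0.30 and were called in none of the 11.

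Markers of other cells moved with treatment in the same libraries. The monocyte and macrophage list, made of cells that produce and respond to CCR2 ligands, summed to 2819 normalized counts in MPP2 with 4OHT and 2326 in MPP2 with ethanol, and to 1970 in ST-HSC with 4OHT and 1750 in ST-HSC with ethanol. Of its 10 genes counted (12 of 14 are in the table), 9 were above 0 in log2 difference in MPP2 and 9 in ST-HSC colonies, with medians of 0.81 and 0.65. Of all 11370 genes counted, 5652 were above 0 in MPP2 and 5605 in ST-HSC colonies. C1qb and C1qc were at 0 in MPP2 with ethanol. The mast cell and basophil list of 11 genes summed to 568 in MPP2 with 4OHT and 1697 in MPP2 with ethanol, and to 87.8 in ST-HSC with 4OHT and 160.1 in ST-HSC with ethanol. Of its 10 counted genes, 8 were at least 2-fold lower with 4OHT in MPP2, against 1.7% of all genes, and 4 in ST-HSC colonies, against 0.545%. Tpsb2 and Mcpt4 were at 0 in both ST-HSC libraries and Cma1 in ST-HSC with 4OHT. Tpsb2 stood at 0.882 in MPP2 with 4OHT and 3.39 in MPP2 with ethanol. It reached the mean filter through MPP2 with ethanol, which favours its being counted as lower with 4OHT. The dendritic cell list, mostly antigen presentation genes, summed to 216 in MPP2 with 4OHT and 98.2 in MPP2 with ethanol, and to 335 in ST-HSC with 4OHT and 221 in ST-HSC with ethanol. Erythroid genes summed to 7.22 in MPP2 with 4OHT and 129 in MPP2 with ethanol, and to 0.934 in ST-HSC with 4OHT and 0.765 in ST-HSC with ethanol. In MPP2 colonies 5 of the 6 counted were at least 2-fold lower with 4OHT, against 1.7% of all genes. Hba-a2 and Slc4a1 had 0 reads in every library but MPP2 with ethanol, and Hbb-b1 had 0 in both ST-HSC libraries. Hba-a1 and Klf1 stood at 2.49 and 1.04 in MPP2 with 4OHT, and at 46.0 and 3.10 in MPP2 with ethanol. All 5 genes counted as lower reached the mean of 1 through MPP2 with ethanol, so the filter itself favours this direction in the count. The eosinophil list summed to 108 in MPP2 with 4OHT and 217 in MPP2 with ethanol, and to 31.7 in ST-HSC with 4OHT and 34.4 in ST-HSC with ethanol. In MPP2 colonies 3 of its 5 counted genes were at least 2-fold lower with 4OHT, against 1.7% of all genes. Among these 3, Prg3 stood at 2.41 in MPP2 with 4OHT and 6.35 in MPP2 with ethanol. Prg3 reached the mean filter through MPP2 with ethanol, which favours its being counted as lower with 4OHT. The part of these cells in the chemokine differences was not tested.

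With 4OHT the cell types differed most in Ccl6 and, in the other direction, Ccr2. Ccl6 was 2.95-fold higher in MPP2 than in ST-HSC colonies with 4OHT (2.87 to 3.03), and 5.18-fold with ethanol (5.04 to 5.33). Ccr2 was 4.36-fold lower in MPP2 than in ST-HSC colonies with 4OHT (ratio 0.230, 0.192 to 0.274), and its ratio was 0.612 with ethanol, the difference nearest to 0 of the 8 on the log2 scale. The other 6 counted members were much closer together with 4OHT, where their MPP2 to ST-HSC ratios lay between 0.746 for Ccl7 and 1.20 for Ccl3. For Ccl4 the interval with 4OHT (ratio 1.09, 0.987 to 1.19) held 1, so its levels were not separable by counting error. With ethanol the ratios of these 6 lay between 1.88 for Ccr1 and 4.04 for Ccl7 (1.90 to 9.55), all higher in MPP2.

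With 4OHT 1 of 8 members was at least 2-fold higher in MPP2 (Ccl6), against 5.39% of all genes, and 1 was at least 2-fold lower (Ccr2), against 1.71%. With ethanol 6 of 8, all of the counted ligands, were at least 2-fold higher, against 6.27% of all genes, and 0 were at least 2-fold lower, against 0.862%. The log2 difference between cell types was closer to 0 with 4OHT than with ethanol for 7 of 8 members, all but Ccr2, against 42.6% of all genes. The comparisons between cell types use the same 4 libraries as those between treatments. The change of the cell type difference with 4OHT is the same quantity as the gap in 4OHT differences given above, so these counts are not independent of it.

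**Figure D4:**
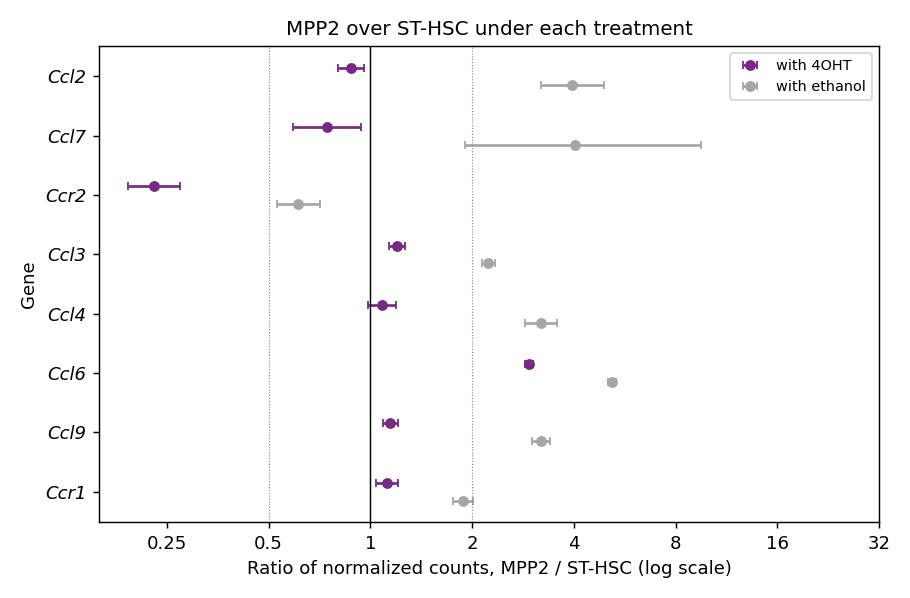
Ratio of normalized counts, MPP2 over ST-HSC (horizontal log axis), for 8 members with 4OHT (purple, upper point) and with ethanol (grey, lower point), with exact 95% counting intervals as bars and dotted lines at 2-fold. With 4OHT 6 of the genes lie near 1, Ccl6 lies at 2.95 and Ccr2 at 0.230.

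The cell type effect shared by both treatments was called by limma for Ccl6, with a log2 effect of 1.97 (SE 0.222, adjusted p = 0.0135, higher in MPP2 under both treatments). Ccl6 was called in all 11 settings, with adjusted p between 6.64e-07 and 0.0383. For Ccr2 the shared log2 effect was -1.39 (SE 0.336, adjusted p = 0.0541 by limma), and it was called in 4 of the 11 settings. The other 6 members had shared effects of 0.51 to 0.94 and were not called by limma, which called 9.88% of all genes higher in MPP2 and 5.31% lower. Besides Ccl6 and Ccr2, edgeR called Ccl3, Ccl4, Ccl9 and Ccr1, where it called 16.5% of all genes higher and 14% lower. DESeq2 called Ccl6 and Ccr1, with 8.74% of all genes higher and 3.98% lower. Fitted with a trend, limma called all of the 8 except Ccl7, with 16.7% of all genes higher and 16.4% lower.

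Compared between genes on a per-length scale, in normalized counts per kb of exon, Ccl6 made up the largest part of the ligand transcripts. It stood at 1142 per kb in MPP2 with 4OHT, 1535 in MPP2 with ethanol, 387 in ST-HSC with 4OHT and 296 in ST-HSC with ethanol. That was 67.4% of the 7 ligands' summed level per kb in MPP2 with 4OHT, 62.8% in MPP2 with ethanol, 43.4% in ST-HSC with 4OHT and 44.8% in ST-HSC with ethanol. Ccl3 came second in all 4 libraries. Its share per kb was 16% in MPP2 with 4OHT and 25.2% in MPP2 with ethanol, and 25.3% in ST-HSC with 4OHT and 41.7% in ST-HSC with ethanol. Ccl2 had the opposite pattern, with a share per kb of 5.10% in MPP2 with 4OHT and 1.56% in MPP2 with ethanol, and 11% in ST-HSC with 4OHT and 1.46% in ST-HSC with ethanol. The summed ligand level per kb was 1694 in MPP2 with 4OHT and 2445 in MPP2 with ethanol, and 892 in ST-HSC with 4OHT and 661 in ST-HSC with ethanol.

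Set beside its receptor per kb of exon, each CCR2 ligand had a higher ratio to Ccr2 with 4OHT in both cell types. The level of Ccl2 was 47.6 times that of Ccr2 in MPP2 with 4OHT and 12.2 times in MPP2 with ethanol, a 3.89-fold change in the ratio. In ST-HSC colonies the level of Ccl2 was 12.4 times that of Ccr2 with 4OHT and 1.90 times with ethanol, a 6.55-fold change. The ratio change was larger than the change of Ccl2 alone in MPP2, where Ccr2 was lower with 4OHT, and smaller in ST-HSC colonies, where Ccr2 was higher. Ccl7 over Ccr2 per kb was 7.12 in MPP2 with 4OHT and 1.01 in MPP2 with ethanol, and 2.19 in ST-HSC with 4OHT and 0.153 in ST-HSC with ethanol. Ccl7 was therefore below its receptor in ST-HSC with ethanol and above it with 4OHT in both cell types.

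Relative to Ccr1, the ligands Ccl3, Ccl4, Ccl6 and Ccl9 differed less between treatments. Ccl7 was also set beside Ccr1 and differed more. Ccl7 over Ccr1 per kb was 0.349 in MPP2 with 4OHT and 0.0555 in MPP2 with ethanol, a 6.29-fold change. In ST-HSC colonies it was 0.524 with 4OHT and 0.0258 with ethanol, a 20.3-fold change. Ccl6 over Ccr1 per kb was 30.8 in MPP2 with 4OHT and 27.0 in MPP2 with ethanol, and 11.7 in ST-HSC with 4OHT and 9.79 in ST-HSC with ethanol. Ccl3 over Ccr1 was lower with 4OHT in both cell types, at 7.32 in MPP2 with 4OHT and 10.8 in MPP2 with ethanol, and 6.84 in ST-HSC with 4OHT and 9.10 in ST-HSC with ethanol. Ccl4 and Ccl9 over Ccr1 were higher with 4OHT in ST-HSC colonies, by 1.88-fold and 1.89-fold. In MPP2 colonies the log2 change was 0.09 for Ccl4 (-0.07 to 0.25) and 0.18 for Ccl9 (0.06 to 0.30). The Ccl4 interval in MPP2 held 0, so that ligand and Ccr1 were lower with 4OHT by amounts that counting error does not separate. These are transcript ratios and say nothing of protein or of which cells carry the receptor.

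**Figure D5:**
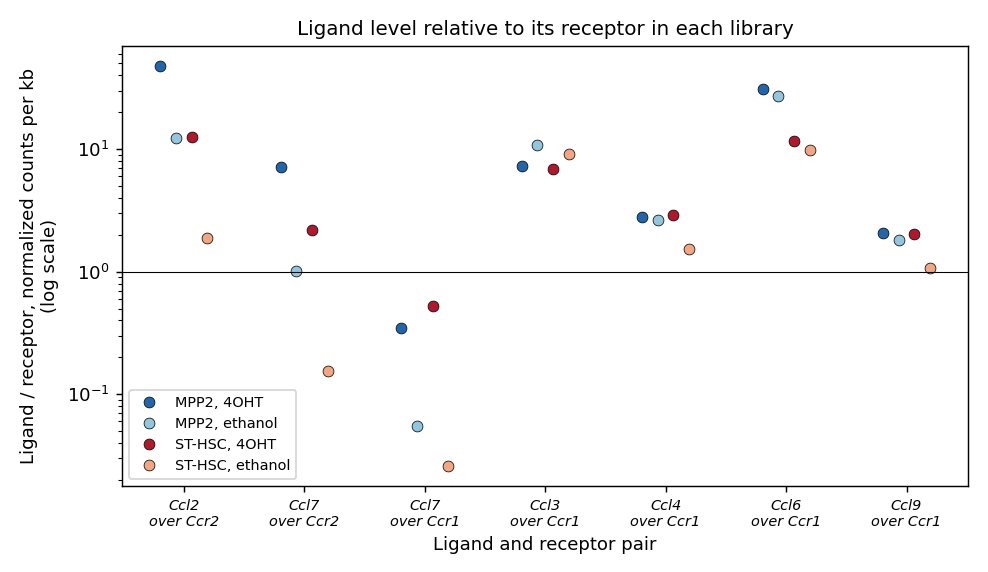
Ratio of ligand to receptor in normalized counts per kb of exon (vertical log axis) for 7 ligand and receptor pairs, 1 point per library and no error bars. Ccl2 over Ccr2 lies at 47.6 in MPP2 with 4OHT and 1.90 in ST-HSC with ethanol, while Ccl9 over Ccr1 stays between 1.07 and 2.07.

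Profiles over the 4 libraries were compared with those of 8385 genes averaging 10 or more, by Euclidean distance between centred log2 values. Ccl4 and Ccl9 were each other's nearest gene (distance 0.0765), and both had Il7r (an interleukin receptor chain) and Arl4c (a small GTPase) next. Ccr1 was nearest to Asph (distance 0.0706), Skil and Dusp6 (a phosphatase that acts on ERK). Ccl6 was nearest to L1cam (distance 0.111), F2rl2 and Tecpr1. Ccl3 was nearest to Cdh1 (E-cadherin, distance 0.219), and Nlrp3, a sensor of the inflammasome, was also among its 3 nearest. Ccl2 had no close match, with Irf7 (a factor of the interferon response) nearest at 0.608, followed by Oas3 and Gm5424. Ccr2 was nearest to Dimt1 (distance 0.412), Scfd1 and Pus7. Ccl7 and Ccl12 lay under the level set for this comparison.

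RefSeq promoter entries (GRCm38.p6, 250 bases before to 50 after the start site) matched 6 of the 9 members, namely Ccl12, Ccl3, Ccl6, Ccl9, Ccr2 and Ccr1. Ccl6 and Ccl9 had the most similar pair of promoters among the 15 pairs, with 58 identical bases in 67 aligned columns. The part of the alignment up to base 30 of the Ccl9 transcript is shown because these neighbours had the same sign of 4OHT difference in each cell type. Ccl4, Ccr2 and Ccr1 had these signs too, and a link between promoter sequence and the 4OHT differences was not tested. Capitals mark the 42 bases identical between Ccl6 and Ccl9 among 48 aligned in this part, 5′ to 3′ on the minus strand.
Ccl6 at chr11:83593092-83593146: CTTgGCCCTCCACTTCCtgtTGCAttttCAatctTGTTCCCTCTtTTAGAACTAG
Ccl9 at chr11:83578607-83578654: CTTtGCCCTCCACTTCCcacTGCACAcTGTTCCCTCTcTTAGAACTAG
The stretch lies from 59 to 5 bases before the start site in Ccl6, and from 18 bases before it to base 30 in Ccl9.

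The same 6 promoters were searched on both strands for 7 motifs. TATAAA was found in Ccl12 and Ccl9 and in 13.6% of 32544 promoters. The kappaB site was found in Ccl9 and Ccr1 and in 8.49% of promoters, and the AP-1 site TGANTCA in Ccl9 and in 7.79%. The ETS core CTTCCTG was found in Ccl6 and in 13.3% of promoters. None of the 6 held the ISRE core (3.45% of promoters), TTCNNNGAA (8.33%) or GAGGAAGT (3.11%). A match is a description of these letters in this window.

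Of 53 other chemokine ligands and receptors listed, 32 were in the table and 14 could be counted. Their median log2 difference with 4OHT was 0.16 in MPP2 and 0.15 in ST-HSC colonies. At least 2-fold higher with 4OHT were 1 in MPP2 (Cxcl10), against 1.32% of all genes, and 2 in ST-HSC colonies (Cxcl10 and Cxcl16), against 2.1%. In MPP2 colonies 1 was at least 2-fold lower (Cxcl2), against 1.7% of all genes. Cxcl10, an interferon-induced chemokine of T cells, stood at 12 normalized counts in MPP2 with 4OHT and 5.05 in MPP2 with ethanol, and at 14.3 in ST-HSC with 4OHT and 3.89 in ST-HSC with ethanol. It was thus higher with 4OHT in both cell types, with a shared log2 effect of 1.46 (limma adjusted p = 0.0805, edgeR adjusted p = 0.00309). Cxcl16, a chemokine also made as a membrane protein, stood at 2.89 in MPP2 with 4OHT and 1.73 in MPP2 with ethanol, and at 4.53 in ST-HSC with 4OHT and 1.11 in ST-HSC with ethanol. Cxcl2, which draws neutrophils, stood at 21.2 in MPP2 with 4OHT and 48.4 in MPP2 with ethanol, and at 24.4 in ST-HSC with 4OHT and 22.0 in ST-HSC with ethanol. Like Ccl3, it was highest in MPP2 with ethanol. Ccl5, a further ligand of CCR1, had 19 reads in MPP2 with 4OHT and 4 in MPP2 with ethanol, and 11 in ST-HSC with 4OHT and 1 in ST-HSC with ethanol. Ccr3 had at most 2 reads in any library. Between cell types, with 4OHT 3 of the 14 were at least 2-fold higher in MPP2 than in ST-HSC colonies (Cxcr2, Pf4 and Ppbp), against 5.39% of all genes, and 1 was at least 2-fold lower (Ccr10), against 1.71%. With ethanol 5 were at least 2-fold higher in MPP2 (Cxcl2, Cxcl3, Cxcr2, Pf4 and Ppbp), against 6.27%. The platelet chemokine genes Pf4 and Ppbp had shared log2 effects of 5.34 and 6.58 (limma adjusted p = 7.38e-04 for both, higher in MPP2 under both treatments).

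Among 20 genes of chemokine receptor signalling, 19 were counted and 1 was at least 2-fold lower with 4OHT in MPP2, against 1.7% of all genes, namely Rgs1, a brake on signalling by these receptors. It stood at 4.81 normalized counts in MPP2 with 4OHT and 21.9 in MPP2 with ethanol, and at 9.85 in ST-HSC with 4OHT and 12 in ST-HSC with ethanol. Of 8 counted genes that cut, bind or hold chemokines, 1 was at least 2-fold higher with 4OHT in MPP2, against 1.32% of all genes, and 3 in ST-HSC colonies, against 2.1%. Mmp14, a membrane protease, stood at 19.3 in MPP2 with 4OHT and 5.77 in MPP2 with ethanol, and at 15.2 in ST-HSC with 4OHT and 5.84 in ST-HSC with ethanol. The macrophage protease Mmp12 stood at 244 in MPP2 with 4OHT and 231 in MPP2 with ethanol, and at 187 in ST-HSC with 4OHT and 79.8 in ST-HSC with ethanol. Mmp12 was thus lowest in ST-HSC with ethanol, as were Ccl2, Ccl7, Ccl4, Ccl6, Ccl9 and Ccr1. The cell-surface proteoglycan gene Sdc4 had log2 differences of 0.66 in MPP2 and 1.02 in ST-HSC colonies.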

How the data were processed

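RNA-seq was done on 4 libraries, 1 per group. Per the labels' protocols, rRNA was depleted and directional libraries were made from 200 ng of RNA. The mm10 build and the tools edgeR, RSEM, Bowtie2 and Trimmomatic 0.36 were used, per the submitters' processing notes, with roles not given. The deposited values are a signal in normalized counts. All 57292 values (100%) lay within 1e-06 of whole reads, so reads were recovered; edgeR on them called 281 genes higher and 211 lower for the shared 4OHT effect. Genes with fewer than 4 summed reads are absent.

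Genes with a mean of at least 1 were counted, with log2(value + 0.5). Shared effects used limma 3.58.1 (R 4.3.3, no trend) on cell type plus treatment, 3 coefficients, with Benjamini-Hochberg adjustment over 11370 genes. edgeR 4.0.16 and DESeq2 1.42.0 were alternatives. The fits were also run on simulated data with treatment effects alone. Those data held no gap between cell types, so they do not test the fits where such a gap is present. P-values are judged against the gap in 4OHT differences between cell types, partly pooled over genes, and not against a spread between replicate libraries. Intervals and the floor of 3 reads cover counting error only and treat reads as independent. Reads without molecular barcodes are not independent molecules, so these intervals and bounds may be too narrow.

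Members, lists and tests were chosen with earlier results of these data known. All 9 members are named. Other chemokine genes are named at 2-fold or more in either cell type or as a ligand or receptor of a member, and the 3 nearest profiles per member with a mean of at least 10. The stem cell sorting markers, the fusion's parent genes and removal of the GC trend in 20 bins were added after the data were seen. Shared 31-base words and coding sequences came from GENCODE M21. Some items are not reported here.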

Additional observations from a re-analysis of the deposited data

Results flagged for a closer look

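Each of the following genes was higher with 4OHT in ST-HSC colonies and lower with 4OHT in MPP2 colonies, in the 1 library per group, and the difference was not tested. The log2 4OHT difference in MPP2 minus that in ST-HSC colonies was -1.55 for Ccl4, -1.48 for Ccl9, -1.38 for Ccr2, -0.81 for Ccl6 and -0.74 for Ccr1. Outside the members, Cxcl2 had the same pattern at -1.32.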

How the results depend on the processing

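No paired analysis was possible because with 1 library per group no replicate number pairs samples beyond cell type, which is already a term of the limma fit. Leaving out a library was not run, since it leaves no residual degree of freedom. In each of the 4 pairwise comparisons all 8 members kept their sign and their side of 2-fold under the alternatives of constant, scaling and GC removal. The alternatives of filter could not change these values, since a filter only decides which genes are counted. The lowest genes limit precision most, Ccl12 and Ccl7 with ethanol in ST-HSC above all. Scaling by total reads put the median of all genes at -0.10 for MPP2 minus ST-HSC with 4OHT. Where a count below changed with the filter, fewer or more genes were tested; otherwise the cause was not tested.

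With a mean of at least 5, genes at least 2-fold higher with 4OHT numbered 83 in MPP2 and 125 in ST-HSC (150 and 239 as reported), and lower ones 79 and 30 (193 and 62). Lower genes in ST-HSC numbered 108 with a constant of 0.1 and 30 with a constant of 1.

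For the shared 4OHT effect (5 genes higher and 1 lower as reported), limma called 0 and 0 with a constant of 0.1, no filter, DESeq2 size factors, total read scaling or GC removal. It called 73 and 19 with a constant of 1, 162 and 68 with a mean of at least 5, and 337 and 261 with a trend. edgeR called 281 and 211, and DESeq2 117 and 41. Of the members (0 as reported), 1 was called higher with a constant of 1 and by DESeq2, and 2 with a mean of at least 5, with a trend and by edgeR; 1 was called lower with a trend and by edgeR. Uncalled effects changed sign for Ccl6 (0.0502), Ccr2 (0.19) and Ccr1 (0.0105) with GC removal and for Ccr2 by edgeR (0.0215).

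For the shared cell type effect (1123 genes higher in MPP2 and 604 lower), limma called 674 and 178 with a constant of 0.1, 490 and 69 without a filter, 676 and 167 with GC removal, and 1899 and 1862 with a trend, where edgeR called 1873 and 1589. Lower genes numbered 964 with a constant of 1, 1395 with a mean of at least 5 and 394 with DESeq2 size factors. Members called higher (1 as reported) numbered 2 with a mean of at least 5 and by DESeq2, 6 with a trend and 5 by edgeR. Members called lower (0 as reported) numbered 1 with a constant of 1, a mean of at least 5, a trend and edgeR.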
